A study of Rattus norvegicus with 6 samples.

Results

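Lysosomes are the acid compartments in which cells break down proteins, sugar chains and lipids taken up from outside or delivered by autophagy. Their soluble enzymes, the cathepsins, glycosidases and lipid hydrolases, work in a lumen acidified by the vacuolar proton pump and enclosed by heavily glycosylated membrane proteins. The transcription factors TFEB and MITF, of the same family, can switch on many lysosomal genes together, and MITF is best known from pigment cells and osteoclasts. In the vessel wall, lysosomes of macrophages and smooth muscle cells digest lipoproteins and matrix fragments.

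The genes described are 39 lysosomal genes chosen by name from 7 roles: cathepsins, other proteases, glycosidases with a sulfamidase, lipid handling, membrane proteins, proton pump and regulators. Of these 39, 35 were measured among the 14324 genes of the array, each by the row with the highest mean. Ctsz, Gaa, Naglu and Sgsh were not analysed here. RNA came from aortic rings of male Fisher 344 rats aged 1 to 2 months, either freshly harvested (day 0) or after 1 day as cultures in collagen gel in serum-free EBM medium (day 1). Each group had 3 arrays, with 4 to 6 rings or cultures pooled per array, and the day 1 samples were whole gels with their rings. The labels name the arrays biological replicates but leave unsaid whether an animal gave rings to several pools. The p-values therefore reflect variation between these pools, part of which may be technical. Values are log2 expression, and a change is day 1 minus day 0. Values after ± are standard errors of the change (n = 3 per group) unless given as SD. "Rose" and "fell" are used for genes with an adjusted p under 0.05 by limma, with Benjamini-Hochberg adjustment over all genes.

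Most lysosomal transcripts were higher after 1 day of culture. In all, 30 members passed the threshold (85.7%), where 48.3% of all genes did. Of the 35 members 28 rose, which is 80.0%, where 27.6% of all genes rose. Ctsh, a cathepsin with aminopeptidase activity, and Tfeb fell, which is 5.71% of the members, where 20.7% of all genes fell. The median change of the members was 0.68, against -0.01 over all genes. The members are bright on the array. Genes at least as bright as the dimmest member, Tfeb, at percentile 61.3, rose in 45.2% of cases with a median change of 0.14. This background was chosen after seeing the data. Most members lay well above its cut, Ctsb at percentile 99.9, so it is not matched to them in brightness. Gpnmb, Npc1, Atp6v1b2, Ctsb, Ctsl and Mcoln1 rose at least 2-fold, which is 17.1% of the members, where 4.13% of all genes did so. Falls of that size were made by 4.11% of all genes, and the member falls were smaller. Day 0 and day 1 arrays were fully separate for 34 of the 35 members, and for 56.9% of all genes. The exception was Asah1, the lysosomal ceramidase. A change larger than 1.5-fold, tested as such with limma's treat, was called upward for 12 members (34.3%), where 5.77% of all genes were called upward and 5.05% downward.

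**Figure D1:**
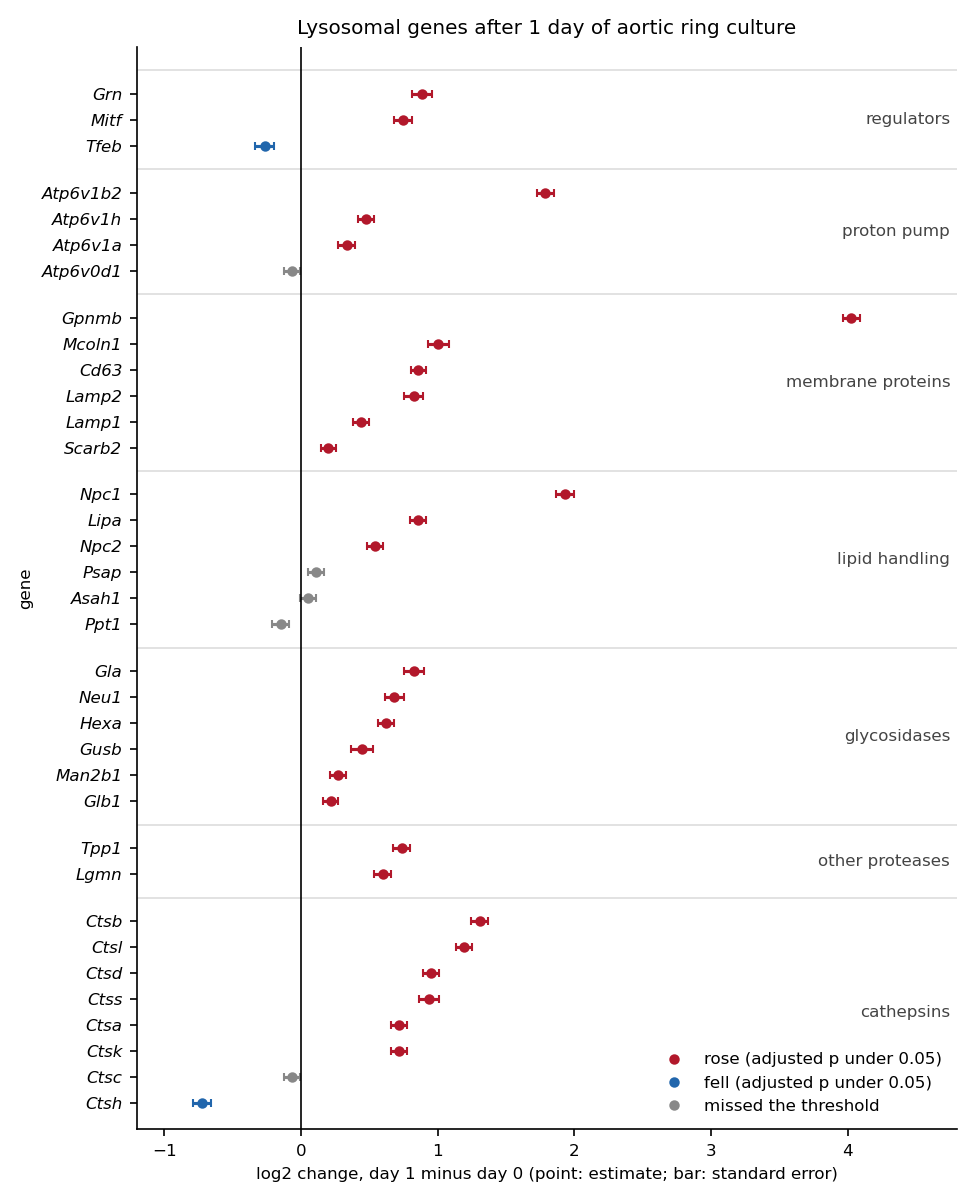
Log2 change (day 1 minus day 0, horizontal axis) of the 35 measured members, grouped by role on the vertical axis, with bars for standard errors (n = 3 per group). Gpnmb lies far to the right at 4.03, Npc1 (1.93) and Atp6v1b2 (1.79) follow, and Ctsh (-0.72) and Tfeb (-0.26) are the falls.

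The promoters of the members were searched for motifs of the TFEB and MITF family. RefSeq windows of GRCr8, from 250 bases before to 50 after the annotated start, were matched by symbol for 28 of the 35 members. The core of the CLEAR element, TCACGTGA, stood in 4 of 28 windows, which is 14.3%, and in 1.26% of the 11825 windows of measured genes. The shorter E-box CACGTG, which lies inside that core, stood in 6 of 28 windows (21.4%) and in 8.07% of the windows of measured genes. The M-box TCATGTG stood in 8 of 28 windows (28.6%) and in 2.97% of those of measured genes. Both strands were searched, and CACGTG and TCACGTGA read the same on either strand. These matches describe letters in a fixed window and show no binding. The CLEAR element is named for the lysosomal gene network, so its share among the members does not bear on the culture. The part of these motifs in the changes was not tested.

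The stretches with the CLEAR core are shown because it is the motif named for this gene network. They belong to Lamp1, Ctsd, Mcoln1 and Atp6v0d1, are printed 5′ to 3′ on the gene's strand, and have the core in capitals. Lamp1 holds the core at 66 and again at 39 bases before the start, Atp6v0d1 at 53 and Ctsd at 11 bases before it. In Mcoln1 it begins at position 4 after the start. Among these genes Mcoln1 and Ctsd changed by 1.01 and 0.95, Lamp1 by 0.44 and Atp6v0d1 by -0.07, the last missing the threshold.
Lamp1, chr16:83075065-83075159, minus strand: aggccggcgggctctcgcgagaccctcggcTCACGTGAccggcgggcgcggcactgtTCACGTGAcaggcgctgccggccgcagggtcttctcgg
Ctsd, chr1:206968822-206968862, minus strand: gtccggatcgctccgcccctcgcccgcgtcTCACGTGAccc
Mcoln1, chr12:6358250-6358279, plus strand: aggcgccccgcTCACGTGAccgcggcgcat
Atp6v0d1, chr19:50357264-50357331, minus strand: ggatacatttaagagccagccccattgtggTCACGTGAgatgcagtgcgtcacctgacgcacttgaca

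The M-box stood before the start of Gpnmb, Ctsk, Tpp1, Cd63, Grn, Scarb2 and Atp6v1a, and at position 4 after the start of Ctss. Gpnmb is shown because it has the largest change, Ctsk because cathepsin K is a known MITF target in osteoclasts, and Tpp1 because it holds the motif on both strands. The motif, in capitals, reads CACATGA where it lies on the other strand. It begins 22 bases before the start of Gpnmb, 151 before that of Ctsk, and 39 and 26 before that of Tpp1.
Gpnmb, chr4:79341076-79341127, plus strand: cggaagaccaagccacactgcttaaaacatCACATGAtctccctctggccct
Ctsk, chr2:185747367-185747433, plus strand: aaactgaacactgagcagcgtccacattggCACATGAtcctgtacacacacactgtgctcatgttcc
Tpp1, chr1:169515940-169516008, minus strand: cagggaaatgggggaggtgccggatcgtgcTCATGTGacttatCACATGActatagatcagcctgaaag

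Across the array, 149 measured genes had the CLEAR core in their window. Of these 81 rose (54.4%) and 17 fell (11.4%), against 28.2% and 20.2% of all measured genes with a window. With the members left out, 78 of 145 rose. These genes were also brighter, with a median level at percentile 73.2 of all genes against 50.9 for those with any window, and the part of brightness in that count was not tested. Of the 954 genes with the E-box, which include those with the CLEAR core, 396 rose (41.5%) and 161 fell (16.9%). With the members left out, 391 of 948 rose (41.2%), and the median level of the 954 was at percentile 63.3. Of the 351 genes with an M-box, 95 rose (27.1%) and 48 fell (13.7%), and with the members left out 87 of 343 rose (25.4%). These genes were dimmer, with a median level at percentile 32.8.

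Cathepsins are the main lysosomal proteases. Of 8 measured, 6 rose and Ctsh fell, with a median change of 0.83. Ctsb, the abundant cysteine protease cathepsin B, stood at 12.27, 12.37 and 12.23 on day 0 and at 13.63, 13.58 and 13.59 on day 1. It rose 2.47-fold (1.31 ± 0.06, adjusted p = 1.64e-06). Ctsl, cathepsin L, a cysteine endopeptidase, stood at 10.42, 10.35 and 10.34 on day 0 and at 11.57, 11.56 and 11.55 on day 1. It rose 2.28-fold (1.19 ± 0.06, adjusted p = 1.64e-06). Every day 1 array of both genes lay above every day 0 array, by more than the spread within either group.

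Ctsd, the aspartic protease cathepsin D, rose from 11.38, 11.31 and 11.33 to 12.32, 12.28 and 12.29 (0.95 ± 0.06, adjusted p = 5.04e-06). Ctss, cathepsin S, which processes the invariant chain in antigen-presenting cells, rose from 9.19, 9.14 and 9.11 to 9.97, 10.07 and 10.21 (0.94 ± 0.07, adjusted p = 2.47e-05). Its day 1 values were the most spread among the cathepsins, with an SD of 0.12. Ctsk, the collagen-cutting cathepsin K, went from 10.03 ± 0.03 (SD, n = 3) to 10.75 ± 0.04 (SD, n = 3), a rise of 0.72 ± 0.06. Ctsa, the protective protein that stabilises neuraminidase and beta-galactosidase, rose by 0.72 ± 0.06, from 10.82 ± 0.05 (SD, n = 3) to 11.54 ± 0.03 (SD, n = 3).

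Ctsh and Ctsc did not share these rises. Ctsh stood at 10.80, 10.76 and 10.71 on day 0 and at 9.99, 9.98 and 10.13 on day 1. It fell by 0.72 ± 0.07 (adjusted p = 5.24e-05), and all day 1 values lay under the lowest day 0 value. Ctsc, the dipeptidyl peptidase that activates granule serine proteases, stood at 9.34, 9.31 and 9.32 on day 0 and at 9.29, 9.26 and 9.21 on day 1. The groups did not overlap, but the change of -0.07 ± 0.06 missed the threshold (adjusted p = 0.374), with a 95% interval from -0.20 to 0.07. With quantile normalization Ctsc was at -0.17 and passed, downward (limma, adjusted p = 0.0297).

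Both other proteases rose, with a median of 0.67. Lgmn, the asparaginyl endopeptidase legumain that matures several cathepsins, rose by 0.60 ± 0.06, from 10.74 ± 0.04 (SD, n = 3) to 11.34 ± 0.06 (SD, n = 3). Tpp1, a tripeptidyl peptidase, rose from 9.18, 9.06 and 9.09 to 9.88, 9.86 and 9.80 (0.74 ± 0.06, adjusted p = 3.26e-05). The arrays of the groups were apart in both genes.

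**Figure D2:**
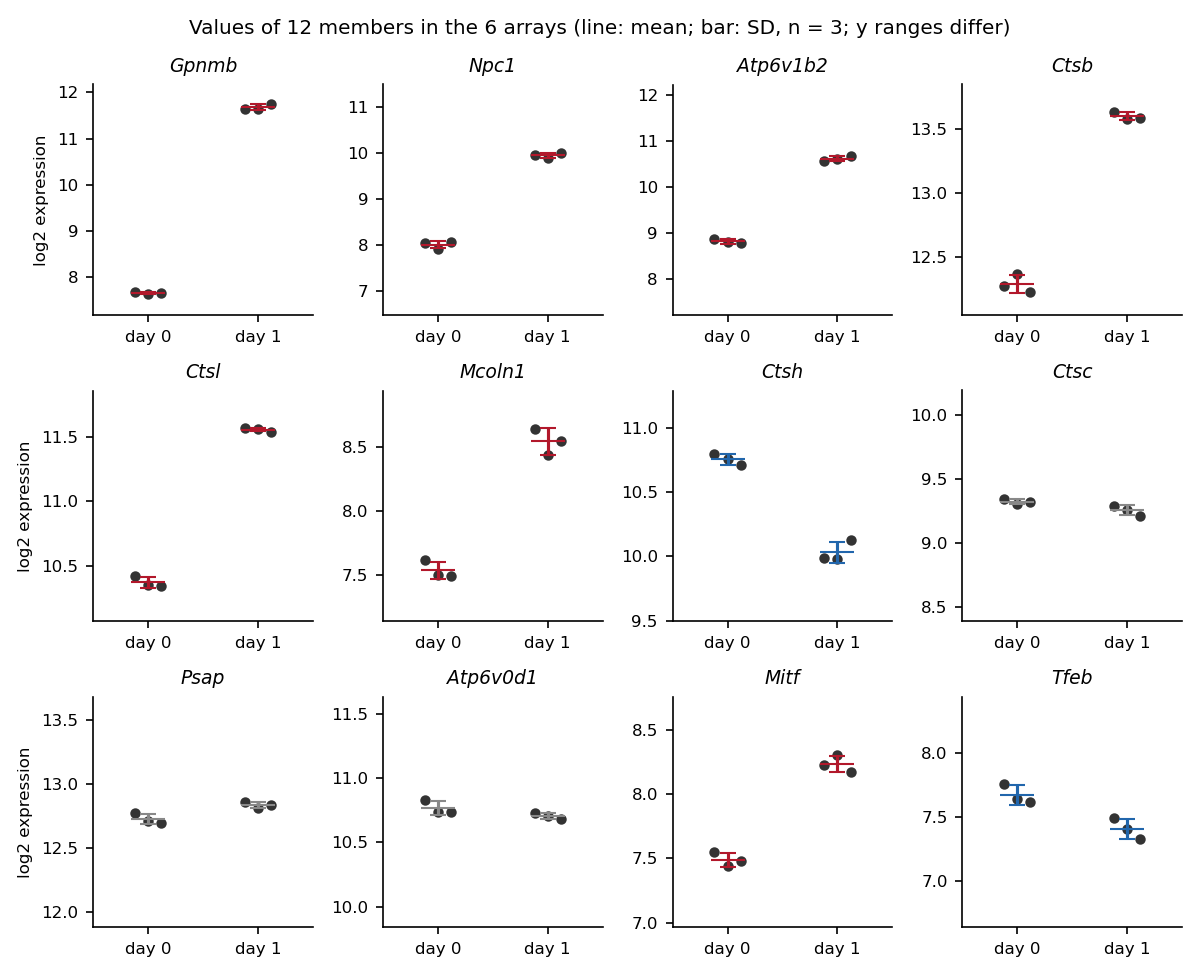
Log2 expression (vertical axis, with ranges that differ between panels) of 12 members in each array of day 0 and day 1, with means as lines and SD as bars (n = 3). The groups are wide apart for Gpnmb, Npc1, Atp6v1b2, Ctsb, Ctsl and Mcoln1, lower on day 1 for Ctsh and Tfeb, and close for Ctsc, Psap and Atp6v0d1.

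Glycosidases trim sugars from glycoproteins, glycolipids and glycosaminoglycans. All 6 measured rose, each by less than 2-fold, with a median of 0.54. Gla, the alpha-galactosidase that clears globotriaosylceramide, stood at 8.03, 7.79 and 7.90 on day 0 and at 8.75, 8.75 and 8.71 on day 1 (0.83 ± 0.07, adjusted p = 4.63e-05). Neu1, the lysosomal sialidase, went from 7.67, 7.73 and 7.63 to 8.46, 8.29 and 8.33 (0.68 ± 0.07). Hexa, a hexosaminidase subunit, went from 9.91, 9.79 and 9.84 to 10.46, 10.47 and 10.48 (0.62 ± 0.06). In these 3 genes the groups were separated by more than the spread of either.

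The other glycosidases changed less. Gusb, beta-glucuronidase, rose by 0.45 ± 0.08 (adjusted p = 0.00207), and its day 0 arrays had an SD of 0.11. Man2b1, lysosomal alpha-mannosidase, rose by 0.27 ± 0.06 (adjusted p = 0.00526). Glb1, beta-galactosidase, stood at 9.20, 9.16 and 9.18 on day 0 and at 9.43, 9.38 and 9.38 on day 1, a small rise of 0.22 ± 0.06 (adjusted p = 0.0125). With quantile normalization Glb1 was at 0.12 and missed the threshold (limma, adjusted p = 0.1). Ctsa, Neu1 and Glb1 encode partners of one lysosomal enzyme complex, and their changes were 0.72, 0.68 and 0.22.

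The 6 lipid handling genes had a median change of 0.33, and the 3 that rose handle cholesterol. Npc1, the membrane transporter that exports cholesterol from the lysosome, stood at 8.06, 7.92 and 8.07 on day 0 and at 9.97, 9.89 and 9.99 on day 1. It rose 3.82-fold (1.93 ± 0.07, adjusted p = 3.36e-07), the largest change among the members after Gpnmb. Npc2, the soluble carrier that hands cholesterol to NPC1, rose from 10.62, 10.68 and 10.59 to 11.21, 11.14 and 11.19 (0.54 ± 0.06). Lipa, the acid lipase that frees cholesterol from its esters, rose from 8.36, 8.35 and 8.33 to 9.24, 9.18 and 9.20 (0.86 ± 0.06, adjusted p = 8.17e-06). The groups were apart in all 3 of these genes.

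Psap, the precursor of the saposins that present sphingolipids to their hydrolases, stood at 12.77, 12.71 and 12.70 on day 0 and at 12.86, 12.81 and 12.83 on day 1. Its change of 0.11 ± 0.06 missed the threshold (adjusted p = 0.158), with a 95% interval from -0.02 to 0.24, and passed with an intensity trend and robust prior in limma (adjusted p = 0.0108). Asah1 was at 0.05 ± 0.06 (adjusted p = 0.503, interval from -0.08 to 0.19), with arrays that overlapped between the groups. Ppt1, which removes palmitate from proteins, stood at 10.29, 10.29 and 10.31 on day 0 and at 10.15, 10.22 and 10.08 on day 1. Its change of -0.15 ± 0.06 missed the threshold (adjusted p = 0.0818), with a 95% interval, not adjusted over genes, from -0.29 to -0.01. It passed, downward, in 4 alternative limma fits, with quantile normalization at -0.22 (adjusted p = 0.0184), and at its unchanged value without the dimmest 25% of genes (adjusted p = 0.0496), with only genes of above-median mean (adjusted p = 0.0276) and with an intensity trend and robust prior (adjusted p = 0.0138).

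All 6 membrane proteins rose, with a median of 0.84. Gpnmb, a glycoprotein of melanosomes and of the lysosomes of lipid-laden macrophages, stood at 7.68, 7.63 and 7.66 on day 0 and at 11.65, 11.65 and 11.76 on day 1. The rise of 16.3-fold (4.03 ± 0.06, adjusted p = 3.28e-08) ranked 11 among the rises of all 14324 genes. Mcoln1, the calcium channel TRPML1, whose calcium release can activate TFEB, rose from 7.62, 7.50 and 7.49 to 8.64, 8.44 and 8.55 (1.01 ± 0.07, adjusted p = 1.62e-05). Cd63, a tetraspanin of late endosomes and exosomes, rose from 11.21, 11.25 and 11.28 to 12.09, 12.12 and 12.09 (0.86 ± 0.06). The groups were far apart in each of these 3 genes.

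Lamp2 and Lamp1, the main glycoproteins lining the lysosomal membrane, both rose. Lamp2, which also serves chaperone-mediated autophagy, went from 11.24, 11.16 and 11.11 to 11.91, 12.05 and 12.02 (0.83 ± 0.07, adjusted p = 2.93e-05). Lamp1 went from 10.85, 10.85 and 10.85 to 11.27, 11.27 and 11.33 (0.44 ± 0.06, adjusted p = 3.46e-04), and its day 0 arrays lay closest together of all members. Scarb2, a sorting receptor of the lysosomal membrane, stood at 11.33, 11.29 and 11.32 on day 0 and at 11.50, 11.51 and 11.54 on day 1 (0.20 ± 0.06, adjusted p = 0.0183), the smallest rise of the 28. The Scarb2 change stayed between 0.17 and 0.25 over 16 alternative settings. The call was lost in limma when certain single arrays were left out. Its adjusted p was 0.053 when day 0 replicate 2 was left out, 0.0509 when day 1 replicate 2 was, and 0.0545 when day 1 replicate 3 was.

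The vacuolar proton pump joins a V1 sector, which splits ATP in the cytosol, to a V0 sector in the membrane, which carries protons. Among its 4 members 3 rose, with a median of 0.40. Atp6v1b2, a B subunit of V1, stood at 8.88, 8.81 and 8.78 on day 0 and at 10.57, 10.59 and 10.67 on day 1. It rose 3.45-fold (1.79 ± 0.06, adjusted p = 3.34e-07). Atp6v1a, the catalytic A subunit that sits beside it, went from 9.62, 9.73 and 9.65 to 10.03, 10.01 and 9.96 (0.33 ± 0.06, adjusted p = 0.00226), and changed by 0.47 on its other row. Atp6v1h, the regulatory H subunit, rose by 0.47 ± 0.06 (adjusted p = 2.56e-04).

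Atp6v0d1, the d subunit at the joint of both sectors, stood at 10.83, 10.74 and 10.74 on day 0 and at 10.73, 10.70 and 10.68 on day 1. Its change of -0.07 ± 0.06 missed the threshold (adjusted p = 0.395), with a 95% interval from -0.20 to 0.07. Of 16 other pump genes measured, 12 rose and 2 fell (median 0.49). They included Atp6v1d (0.98 ± 0.07), Atp6v1c1 (0.98 ± 0.06) and Tcirg1, the a3 subunit known from osteoclasts (0.87 ± 0.07). Over members and other subunits together, 8 of 10 V1 genes rose (median 0.54), 5 of 8 V0 genes (median 0.32) and both accessory proteins. The falls were Atp6v1g2, a G subunit, at -0.37 ± 0.09 and Atp6v0e2, an e subunit, at -0.20 ± 0.06, both named after their values were seen.

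Among the regulators, the transcription factor genes went apart. Mitf stood at 7.55, 7.44 and 7.48 on day 0 and at 8.22, 8.30 and 8.18 on day 1, and rose by 0.75 ± 0.06 (adjusted p = 3.83e-05). Tfeb stood at 7.76, 7.64 and 7.61 on day 0 and at 7.49, 7.40 and 7.33 on day 1, and fell by 0.26 ± 0.07 (adjusted p = 0.0157). The Tfeb call was lost in limma when day 0 replicate 1 was left out, at an adjusted p of 0.0518, and when day 1 replicate 3 was, at 0.0545. TFEB is controlled largely by its location in the cell, which transcript levels do not report. Grn, which encodes progranulin, a secreted protein needed for lysosomal enzyme function, rose from 10.99, 10.96 and 10.90 to 11.96, 11.74 and 11.81 (0.89 ± 0.07, adjusted p = 3.35e-05).

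Other genes of the pathway were counted by list. Over all 7 lists, 75 of 131 measured genes rose (57.3%) and 12 fell (9.16%), with a median change of 0.26, where 27.6% of all genes rose and 20.7% fell. The counts depended on the scaling, and with quantile normalization 66 rose and 21 fell, with a median of 0.20. Of 20 other lysosomal hydrolases and activators, 12 rose and 3 fell (median 0.33), or 11 and 6 with quantile normalization (median 0.21). The largest changes were those of the fucosidase gene Fuca1 at 0.96 ± 0.07, the acid nuclease gene Dnase2 at 0.76 ± 0.06 and the ribonuclease gene Rnaset2 at 0.75 ± 0.07. Of 24 other lysosomal membrane proteins, 10 rose and 1 fell (median 0.18), or 9 and 3 with quantile normalization (median 0.11). Their share of rises was 41.7%, where 27.6% of all genes rose. The list also holds genes dimmer than the dimmest member, such as Lamp3 at percentile 2.54, where that member stood at 61.3. The 45.2% of rises among genes at least as bright as that member is therefore no like comparison. The 27.6% is not matched to this list in brightness either, so no excess is read from it. The part of brightness in this share was not tested. Tmem192 was at 1.23 ± 0.08, the channel gene Mcoln3, a relative of Mcoln1, at 1.20 ± 0.09, and Ostm1, a partner of a chloride transporter, at 1.01 ± 0.08.

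Of 21 sorting genes, 13 rose and 3 fell (median 0.26), or 9 and 4 with quantile normalization (median 0.16). Sort1, the sorting receptor sortilin, fell by 1.17 ± 0.06 and Rab27a, a GTPase of secretory lysosomes, by 0.72 ± 0.07, while the retromer gene Vps26a rose by 0.74 ± 0.06. Of 18 genes of TFEB and mTORC1 control, 10 rose and 1 fell (median 0.24), or 8 and 1 with quantile normalization (median 0.19). Flcn, the folliculin gene, whose product helps keep TFEB in the cytosol, rose by 1.22 ± 0.08 and Tsc1, a brake on mTORC1, by 0.69 ± 0.06, and the AMP kinase gene Prkaa2 fell by 1.88 ± 0.06. Tfe3 was not analysed here.

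Of 27 autophagy genes, 17 rose and 2 fell (median 0.30), or 16 and 5 with quantile normalization (median 0.20). The largest changes were those of the ubiquitin-like genes Gabarapl1 (1.62 ± 0.06) and Map1lc3b (1.02 ± 0.07) and of the cargo receptor gene Sqstm1 (1.18 ± 0.07). Of 5 cathepsin inhibitor genes 1 rose, Cstb, the cytosolic inhibitor of cysteine cathepsins (1.26 ± 0.06, adjusted p = 2.15e-06). Cst3, the secreted cystatin C, was at -0.05 ± 0.06 (adjusted p = 0.522).

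**Figure D3:**
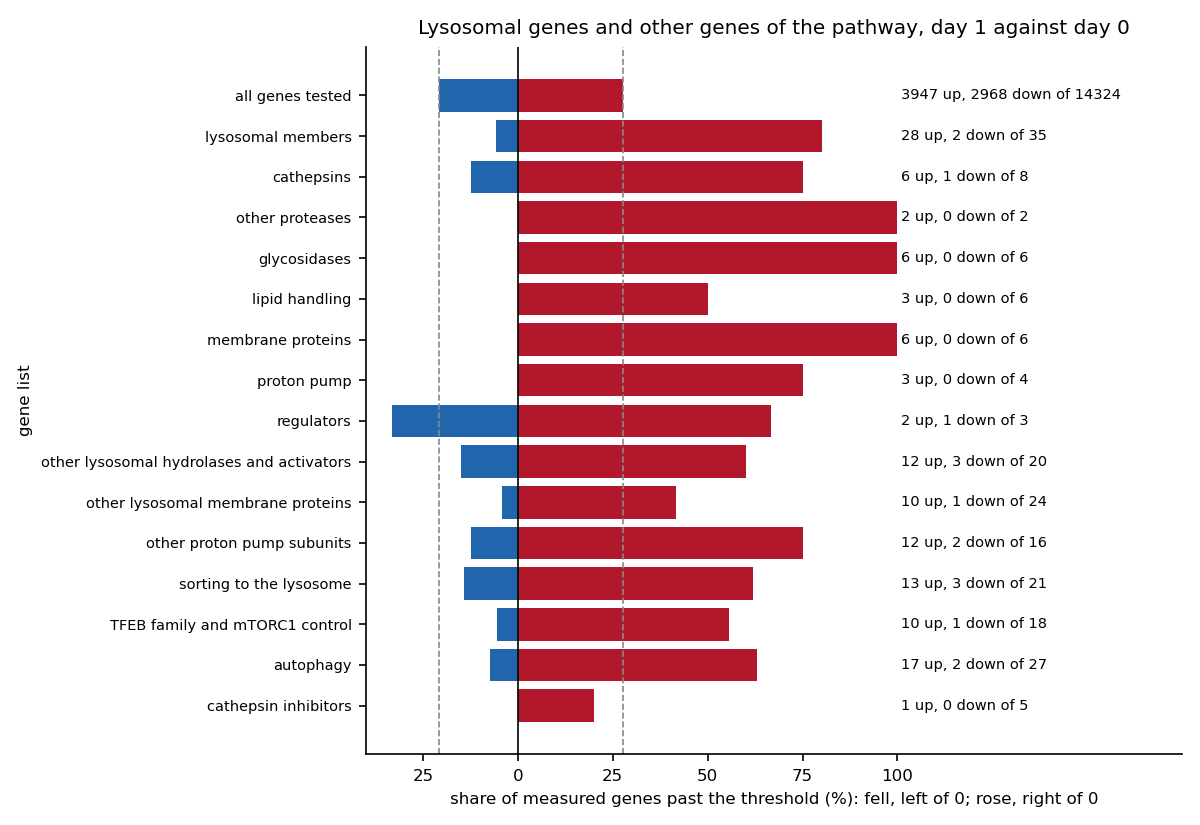
Share of the measured genes of each list past the threshold, in percent (horizontal axis), with rises to the right of 0 and falls to the left, for the role groups and the other lists of the pathway (vertical axis). The dashed lines mark the shares over all genes, 27.6% for rises and 20.7% for falls, and every list but the cathepsin inhibitors exceeds the former. The other lysosomal membrane proteins (41.7%) include genes dimmer than the dimmest member. The 45.2% of rises among genes at least as bright as that member is no like comparison for this list. The 27.6% is not matched to it in brightness either.

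Lysosomal genes are also high in macrophages, so markers of the cell types a ring can hold were set beside the members. In bulk RNA, fewer cells of a type and less RNA per cell cannot be told apart. Day 0 rings carried the defining smooth muscle transcript Myh11 at a mean of 13.03, and all 11 smooth muscle markers fell, with a median change of -3.04. Of 26 macrophage and monocyte markers 9 rose (34.6%) and 6 fell (23.1%), where 27.6% of all genes rose and 20.7% fell. The median change of this list was 0.01, and with quantile normalization the counts were 9 and 8. Fcgr2b (2.40 ± 0.16), Cd68, itself a lysosomal membrane protein (1.70 ± 0.06), and Adgre1 (0.61 ± 0.12) rose, while Lyve1 (-2.05 ± 0.08) and the growth factor receptor gene Csf1r (-0.46 ± 0.08) fell. Ptprc, the pan-leukocyte marker CD45, rose by 0.45 ± 0.11. The mean log2 value over the macrophage list lay between 7.62 and 7.68 on day 0 and between 7.76 and 7.93 on day 1. Its summed linear signal lay between 6991 and 7313 on day 0 and between 8905 and 10029 on day 1. This sum weighs bright genes most, among them Cd14 (1.61 ± 0.07) and Fcer1g (1.16 ± 0.09), which rose. By gene, 13 of the list were higher on day 1 and 13 lower.

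Of 13 listed markers of lipid-laden macrophages and osteoclasts, 6 were measured, and of these 4 rose and 1 fell. Lgals3 was at 2.58 ± 0.07, the lipid droplet gene Plin2 at 2.15 ± 0.08, Fabp5 at 0.71 ± 0.16 and Trem2 at 0.48 ± 0.10. Cd9, the brightest of them, fell by 0.32 ± 0.06. Calcr, dim at a day 0 mean of 3.70, was at -0.01 ± 0.08 and missed the threshold. The mean log2 value over the 6 markers lay between 7.14 and 7.22 on day 0 and between 8.02 and 8.16 on day 1. Their summed signal lay between 4934 and 5211 on day 0 and between 6176 and 6260 on day 1. Acp5, Dcstamp, Itgb3, Ocstamp, Oscar, Spp1 and Tnfrsf11a were not analysed here. Of 8 endothelial markers 6 rose and 2 fell, of 11 fibroblast markers 3 rose and 7 fell, and 10 of 11 adipocyte markers fell. Among mast cell markers 1 of 9 rose, Kit (1.65 ± 0.07), and 3 fell, and 2 of 9 lymphocyte markers fell (22.2%). Over all genes, 27.6% rose and 20.7% fell. By limma, 0 of 9 neutrophil and 0 of 4 melanocyte markers passed, with 2 and 1 at an unadjusted p under 0.05, and 1 melanocyte marker rose with quantile normalization or median centring. The pigment cell genes Tyr and Tyrp1 stood at means of 3.68 and 4.41 on day 0 and of 3.54 and 4.15 on day 1. The part of cell make-up in the changes of the lysosomal genes was not tested.

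**Figure D4:**
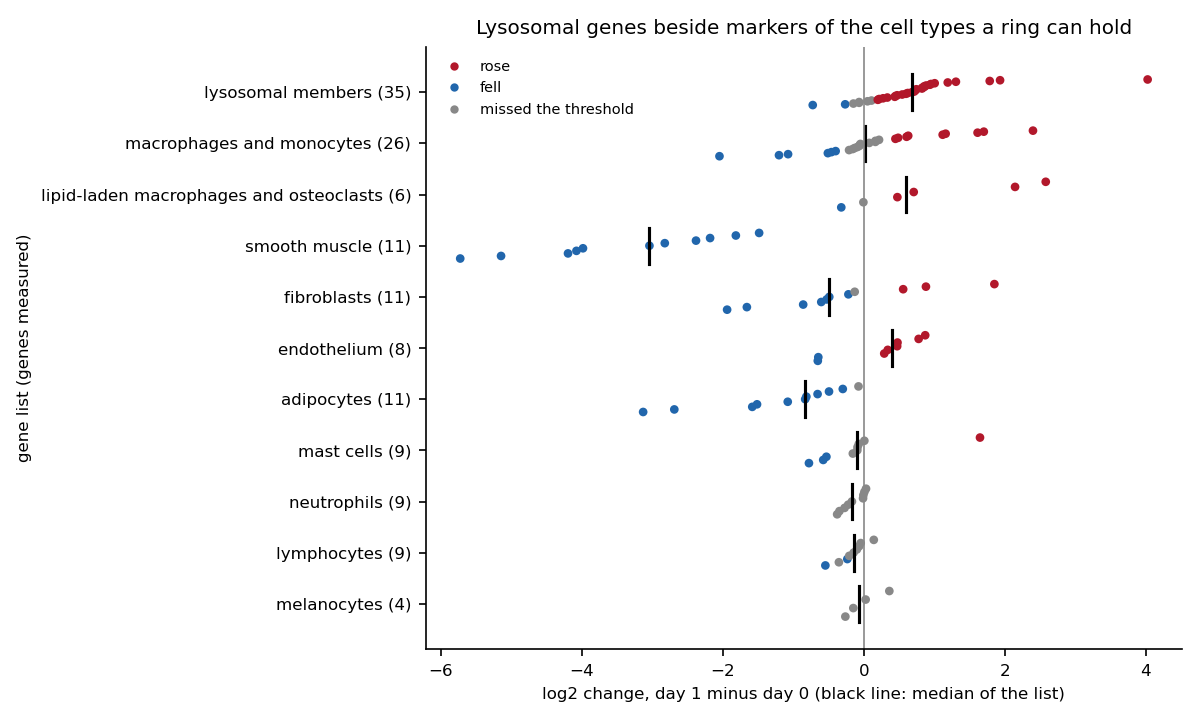
Log2 change (day 1 minus day 0, horizontal axis) of each gene in the lysosomal list and in marker lists of 10 cell types (vertical axis, with the number measured), with the list's median as a black line. The lysosomal median lies at 0.68, the macrophage median at 0.01 with genes spread to both sides, and the smooth muscle median at -3.04.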

How the data were processed

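RNA from 6 pools was labelled with biotin (200 ng each) and hybridised to whole-transcript arrays, per the labels' protocols. The authors deposited log2 expression values, and this scale was inferred from their range, which reaches 14.16. Limma is named in the submitters' processing notes, while background correction, normalization and summary of the signals were not given by the sources used here. Medians of the arrays lay between 5.87 and 5.95, and the labels name no batch. Precision is limited by the number of arrays. Of 27342 rows, 15097 had exactly 1 symbol, 323 several and 11922 none. Symbols were updated by gene ID (15067 rows) or accession (6 rows) against RefSeq's GRCr8 gene table, with the highest-mean row kept per gene.

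Day 1 was set against day 0 with limma 3.58.1 in R 4.3.3 (lmFit, eBayes, two-sided) over 14324 genes, with no filter. The fit was tested on simulated data. Counts, motif searches and figures used Python 3.11.15. Treat, with a 1.5-fold change, and the other alternatives (scaling, filters on dim genes, row choice, symbols as annotated, prior, array weights, replicate block, each array left out) are in the closing section.

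The members and lists were chosen with earlier results of these data known. All members are named. Of each other list, up to 3 genes with the largest change past the threshold are named, and always Tfe3, Sqstm1, Cst3, Cstb, Cd68, Csf1r, Adgre1, Ptprc, Acp5 and Trem2. The rule also held genes that are not reported here. Myh11, Tyr and Tyrp1 were added later as defining markers. Cd14, Fcer1g, Cd9, Calcr and Lamp3 were named after their values were seen.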

Additional observations from a re-analysis of the deposited data

How the results depend on the processing

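Of the 35 members, 29 kept their call in all 16 settings that test for any change. The other 6 were Ctsc, Glb1, Ppt1, Psap, Scarb2 and Tfeb, with values given above. With quantile normalization 4 members fell (Ctsc, Ctsh, Tfeb and Ppt1), and the role medians were 0.77 for cathepsins, 0.78 for membrane proteins, 0.28 for lipid handling, 0.44 for glycosidases, 0.60 for other proteases, 0.64 for regulators and 0.30 for the proton pump. With median centring they were 0.88, 0.89, 0.38, 0.59 and 0.72 for the first 5 of these and 0.45 for the proton pump. The proton pump median was 0.44 with the mean of a gene's rows and 0.47 with the most variable row, since Atp6v1a has 2 rows. These medians moved by more than the spread between arrays and kept their sign. The median over all genes was 0.0035 with quantile normalization and 0.04 with centring. Among the members and the genes of the other lists, 0 past the threshold changed sign under either. The rest of the array was not checked for this. Without genes under the median mean, 1844 genes fell, where 2968 did in the full table. With the same filter 3509 genes rose, where 3947 did in the full table, so falls dropped more than rises. Treat against 1.5-fold called 1550 genes, of which 827 rose and 723 fell, and 12 members, of which 12 rose and 0 fell. Leaving out each array in turn gave 28 to 30 members past the threshold, with 1 to 2 falls.

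Same-numbered arrays did not deviate together (correlations 0.011, 0.019 and 0.036), so the numbers were not taken as pairs. With the replicate number as a block, 30 members passed, of which 28 rose and 2 fell, and 6686 genes passed in place of 6915. With 3 arrays per group and pools of rings, the precision is that of these pools, and changes near 0.2 sit at the limit of what passed.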
